A study of Mus musculus with 6 samples.

Results

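Transcript levels of 6 enzyme genes that use ketone bodies or acetate were followed in mouse kidney, out of 23396 genes in the deposited table, and all 6 were among the 14354 genes tested. They were taken by symbol: Aacs, Bdh1, Oxct1, Acat1, Acss1 and Acss2. The set was selected on fragment counts and FPKM of the same 6 libraries by condition, with results of the comparison below already known. The fold changes of its genes are therefore a description, and their p-values only place each gene in the fit over all genes. Right kidneys were taken from males at 6 months of age and their total RNA was sequenced. The knockout group is 3 mice homozygous for the targeted Far2 allele of strain C57BL/6N-Far2tm2a(KOMP)Wtsi/2J, and the control group is 3 wild-type C57BL/6N mice. Far2 encodes fatty acyl-CoA reductase 2, which turns fatty acyl-CoA into fatty alcohol. Whether the groups were littermates, and what the mice had eaten before the kidneys were taken, is not given in the sources used here. Libraries are called 0, 1 and 2 within each group, as in the table, and equal numbers do not pair them.

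Ketone bodies, mainly acetoacetate and beta-hydroxybutyrate, are made from acetyl-CoA in liver mitochondria during fasting and are burned in other organs, the kidney among them. In the mitochondria of a using cell, BDH1 turns beta-hydroxybutyrate into acetoacetate, OXCT1 loads acetoacetate with coenzyme A taken from succinyl-CoA, and ACAT1 splits the product into acetyl-CoA. AACS instead loads acetoacetate with coenzyme A in the cytosol at the cost of ATP, where the product feeds sterol and fatty acid synthesis. ACSS1 in mitochondria and ACSS2 in the cytosol and nucleus do the same for acetate, which is not a ketone body. The 6 genes thus cover the use of ketone bodies and acetate. Of them Acat1 also takes part in ketone synthesis, as does Bdh1, whose enzyme interconverts acetoacetate and beta-hydroxybutyrate.

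The libraries held from 15261362 to 20631158 fragments assigned to genes. Summed levels of 9 proximal tubule markers lay between 19739 and 23744 CPM (counts scaled to library size, with TMM factors) in every library. Far2 had from 22 to 40 fragments in wild type and from 19 to 31 in knockout, and the groups overlapped, at 1.77 ± 0.30 and 1.51 ± 0.22 CPM (SD, n = 3). The count therefore does not show the knockout, and the table does not separate the targeted part of the gene. Wild type and knockout below mean the libraries so labelled. Wild-type library 0 stood apart in tubular injury markers, with a summed level of 1184 CPM over 5 tested markers against 484 to 609 CPM in the other 5 libraries. Without wild-type library 0 the log2 fold changes were 0.54 for Aacs, 0.19 for Acat1, 0.072 for Oxct1, 0.092 for Bdh1, 0.16 for Acss2 and −0.033 for Acss1. Without wild-type library 1 instead, they were 0.57, 0.19, 0.10, 0.11, 0.092 and 0.12 in the same order of genes.

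Compared per transcript length, the mitochondrial enzymes of ketone use stood at both ends of the order. Oxct1 was the highest, at 400.4 ± 22.4 FPKM (fragments scaled to transcript length and library depth, SD over the 6 libraries), and Acat1 followed at 224 ± 25.2 FPKM. Acss2 stood at 115 ± 7.75 FPKM, Acss1 at 58.8 ± 6.33 FPKM, Aacs at 48.7 ± 19.2 FPKM and Bdh1 at 44.2 ± 3.49 FPKM. Oxct1 was 1.79-fold above Acat1, Acat1 was 1.94-fold above Acss2 and Acss2 was 1.96-fold above Acss1, and in none of these pairs did the ranges over the 6 libraries overlap. Aacs was separated from neither neighbour, since its range, from 26.1 to 73.3 FPKM, covered that of Acss1, from 51.8 to 68.1 FPKM, and that of Bdh1, from 40.9 to 48.9 FPKM, while Acss1 and Bdh1 did not overlap. Aacs was the lowest of the 6 by its wild-type mean, 35.9 ± 16.5 FPKM (SD, n = 3), and the fourth highest by its knockout mean, 61.6 ± 12.4 FPKM. The same order over all libraries came from fragments per kilobase of the longest coding transcript in GENCODE.

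**Figure D1:**
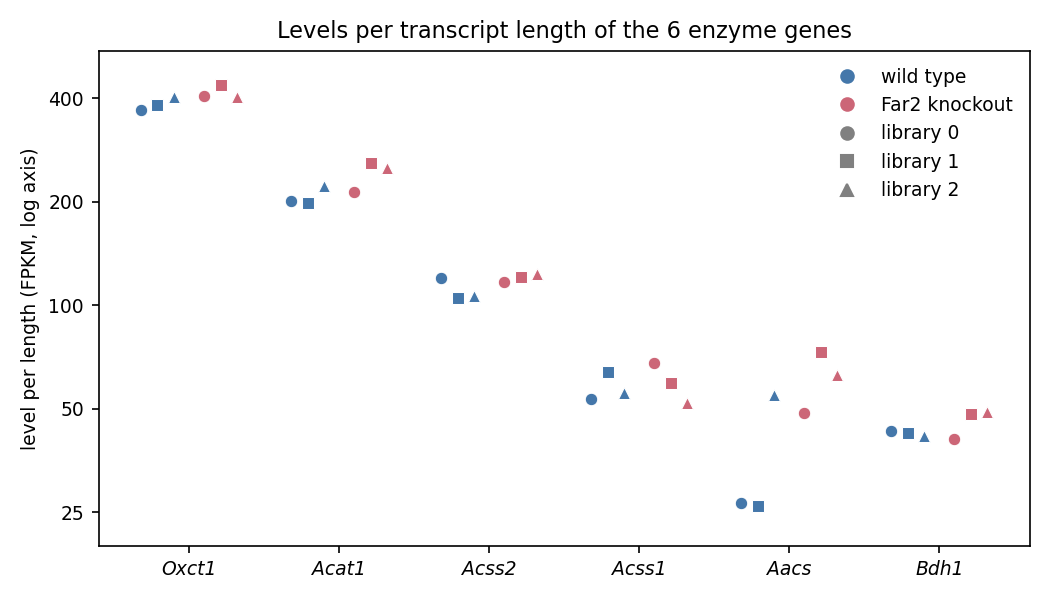
Deposited FPKM of the 6 genes in each of the 6 libraries, on a log axis, ordered by the mean over all libraries, with colour for the group and shape for the library number. Oxct1 lies between 371 and 436 FPKM, and Aacs is the gene whose points spread most, from 26.1 to 73.3 FPKM.

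Ratios taken within a library do not depend on how libraries are scaled to each other. Oxct1 stood 9.11 ± 0.54 times above Bdh1 in wild type (SD, n = 3) and 9.06 ± 0.85 times in knockout, on FPKM. Its ratio to Acat1 was 1.86 ± 0.054 in wild type and 1.73 ± 0.15 in knockout, and that of Acss2 to Acss1 was 1.93 ± 0.30 and 2.04 ± 0.33. These 3 ratios differed between the groups by less than the larger SD of the pair. The ratio of Oxct1 to Aacs was 13.9, 14.7 and 7.38 in wild-type libraries 0, 1 and 2 and 8.35, 5.95 and 6.40 in knockout libraries 0, 1 and 2. Wild-type library 2 thus lay inside the knockout range.

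Aacs, the cytosolic acetoacetyl-CoA synthetase, had the largest difference of the set and the largest spread between mice. Wild-type libraries 0, 1 and 2 read 93.5, 97.6 and 210.5 CPM, from 1884, 2057 and 3244 fragments. Knockout libraries 0, 1 and 2 read 171, 271 and 229.8 CPM, from 3009, 4074 and 4262 fragments. A pair of wild-type libraries was low and close together, the third lay between knockout libraries 0 and 2, and so the groups overlapped. The mean was 134 ± 66.4 CPM in wild type (SD, n = 3) and 224 ± 49.99 CPM in knockout. Knockout was 1.68-fold higher, a log2 fold change of 0.75 ± 0.29 (standard error) with a 95% confidence interval of 0.10 to 1.39. By the quasi-likelihood test of edgeR the p-value was 0.0272, and 0.599 after Benjamini-Hochberg adjustment over all genes. The difference was higher than that of 99.8% of the genes tested, a position the choice of the gene fixes in part.

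The spread of Aacs between mice was much larger than its counting error. The latter was at most 2.30% of its value in any library, while the coefficient of variation between mice was 49.6% in wild type and 22.3% in knockout. The spread between mice that edgeR assigned to it, a biological coefficient of variation of 24.6%, was above that of 96.5% of genes, whose median was 9.33%. In the authors' deposited table, made with Cuffdiff, Aacs was called higher in knockout, with a log2 fold change of 0.78 and q = 0.0106. That table calls 22 of 13404 genes higher in knockout, a share of 0.164%, and 88 (0.657%) in either direction, and calls none of the other 5 genes here (q = 0.780 to 0.999). DESeq2 gave Aacs the same log2 fold change as edgeR to 2 decimals, 0.75, with a larger standard error of 0.45 (Benjamini-Hochberg adjusted p = 0.963). The call for Aacs therefore differs between tools. Its size depended on wild-type library 2, without which the log2 fold change was 1.23 ± 0.17 (adjusted p = 0.141). Without wild-type library 0, the library high in injury markers, it was 0.54. A similar value came without wild-type library 1, at 0.57, and without knockout library 1, at 0.59. Without knockout library 2 the log2 fold change of Aacs was 0.73, and without knockout library 0 it was 0.91.

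Aacs (ENSMUSG00000029482.4) spans bases 125475814 to 125517410 of chromosome 5, plus strand, in mm10, and its coding transcript has 18 exons in GENCODE. The window around its start is shown beside that of Acss2, the other cytosolic enzyme of the set, because both are known as genes that SREBP factors, the switches of lipid synthesis, control. The windows run from 250 bases before to 50 bases after the start in RefSeq (GRCm38.p6), 5′ to 3′, at chr5:125475623-125475922 and chr2:155517793-155518092, both on the plus strand. Capitals mark matches on either strand to any of 5 motifs.
Aacs: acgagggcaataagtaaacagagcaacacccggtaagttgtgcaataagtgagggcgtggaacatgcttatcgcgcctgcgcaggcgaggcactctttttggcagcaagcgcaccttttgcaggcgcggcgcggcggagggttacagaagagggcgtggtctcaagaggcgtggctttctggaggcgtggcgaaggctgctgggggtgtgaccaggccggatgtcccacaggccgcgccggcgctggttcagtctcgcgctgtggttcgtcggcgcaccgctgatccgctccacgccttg
Acss2: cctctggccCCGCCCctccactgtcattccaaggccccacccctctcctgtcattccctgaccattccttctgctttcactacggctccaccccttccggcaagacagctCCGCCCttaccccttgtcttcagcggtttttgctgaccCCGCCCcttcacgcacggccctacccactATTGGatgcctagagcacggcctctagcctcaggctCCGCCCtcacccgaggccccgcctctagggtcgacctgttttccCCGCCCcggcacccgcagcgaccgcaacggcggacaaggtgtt
The motifs searched were the sterol regulatory element TCACCCCAC, the E-box CACGTG, the inverted CCAAT box ATTGG of NF-Y, the GC box GGGCGG of Sp1 and the PPAR element, a pair of AGGTCA copies spaced by any 1 base. No matches overlapped another in these windows. The Acss2 window held 5 GC boxes and 1 inverted CCAAT box, and the Aacs window held no match to any of the 5. Of 32851 promoter windows of the same length, 35.7% held the GC box, 37.4% the inverted CCAAT box, 7.15% the E-box, 0.551% the sterol element and 0.0396% the PPAR element. RefSeq windows were found for 5 of the 6 genes, among which Acss1 held 2 GC boxes and the second of the Bdh1 starts held 1. The Oxct1 window and that of the other Bdh1 start held no match. These are matches of letters only.

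The 3 mitochondrial genes of ketone use had small differences in the same direction. Acat1, which splits acetoacetyl-CoA and can also join acetyl-CoA for ketone synthesis, read 704, 700.4 and 827 CPM in wild-type libraries 0, 1 and 2 and 778, 933 and 902 CPM in knockout libraries 0, 1 and 2. Knockout libraries 1 and 2 were above every wild-type library and knockout library 0 was below wild-type library 2. The difference was 0.23 ± 0.098 (log2 fold change and standard error, interval 0.0080 to 0.45, edgeR adjusted p = 0.599). Acat1 (ENSMUSG00000032047.5) spans bases 53580522 to 53610382 of chromosome 9, minus strand.

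Oxct1, the enzyme without which tissues cannot burn ketone bodies, read 1235, 1286 and 1444 CPM in wild type and 1390.5, 1528 and 1386 CPM in knockout, in library order. Only knockout library 1 exceeded wild-type library 2. The difference was 0.12 ± 0.088 (log2 fold change and standard error, interval −0.079 to 0.32, edgeR adjusted p = 0.693). Without wild-type library 2 it was 0.19 and without wild-type library 0 it was 0.072. Oxct1 (ENSMUSG00000022186.14) spans bases 4026383 to 4155344 of chromosome 15, plus strand, and its deposited locus is merged with BC037032, a gene on the opposite strand with 29 to 58 fragments per library.

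Bdh1, the beta-hydroxybutyrate dehydrogenase, was tightly grouped in wild type, at 139.9, 144 and 146 CPM, a coefficient of variation of 2.24%. Knockout library 0 was below all of these at 136 CPM, and knockout libraries 1 and 2 were above them at 163 and 164 CPM. The difference was 0.11 ± 0.080 (log2 fold change and standard error, interval −0.072 to 0.29, edgeR adjusted p = 0.694). Without knockout library 0 it was 0.19, and without knockout library 2 it was 0.064. Bdh1 (ENSMUSG00000046598.15) spans bases 31422280 to 31458901 of chromosome 16, plus strand.

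Of the genes of acetate activation, Acss2 differed about as much as Oxct1, and Acss1 had the smallest difference of the set. Acss2, cytosolic and nuclear acetyl-CoA synthetase, read 375, 339.6 and 360.1 CPM in wild type and 375, 397 and 401 CPM in knockout, in library order. Wild-type library 0 and knockout library 0 were level, and the other knockout libraries were above all of wild type. The difference was 0.13 ± 0.069 (log2 fold change and standard error, interval −0.030 to 0.28, edgeR adjusted p = 0.616). Acss1, its mitochondrial relative, read 216, 266 and 242 CPM in wild type and 281, 249 and 215 CPM in knockout. Its groups covered the same range, with a log2 fold change of 0.042, a standard error of 0.11 and an interval of −0.20 to 0.28 (edgeR, adjusted p = 0.922). The sign of the Acss1 value turned without wild-type library 0, at −0.033, and without knockout library 0, at −0.055. Both genes are on chromosome 2, Acss1 (ENSMUSG00000027452.11) at bases 150618105 to 150668500, minus strand, and Acss2 (ENSMUSG00000027605.18) at bases 155517948 to 155585724, plus strand. The deposited locus of Acss1 is merged with E130215H24Rik, with 26 to 36 fragments, and that of Acss2 with 4930471I20Rik, with 5 to 20. In GENCODE, Ggt7 on the opposite strand, with 7 to 23 fragments, reaches base 155518237, past the deposited Acss2 start at 155518043. Gss overlaps the GENCODE model of Acss2 on the opposite strand from base 155563181, but the deposited Acss2 locus ends before it, at 155562743.

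**Figure D2:**
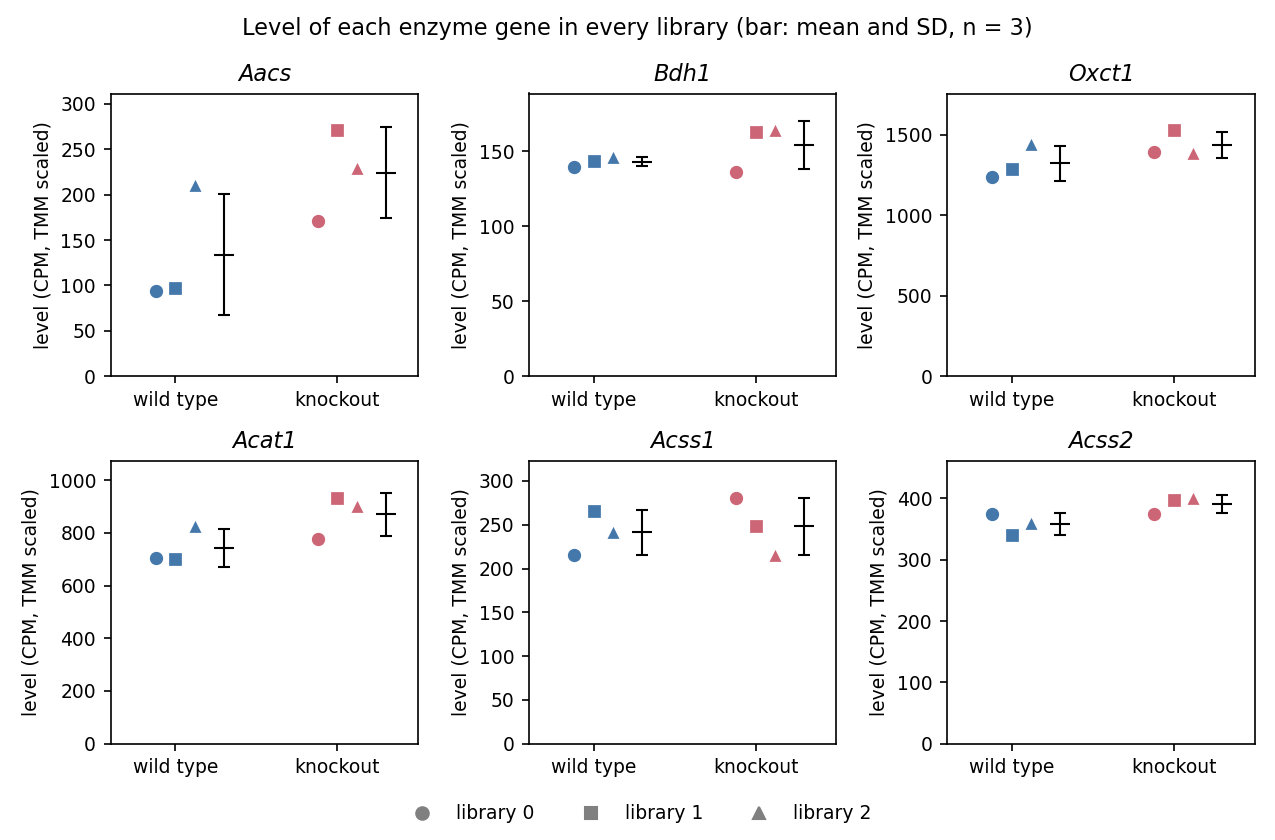
CPM of each of the 6 genes in every library, by group on the horizontal axis, with the shape giving the library number and the bars the mean and SD (n = 3). In Aacs wild-type libraries 0 and 1 lie at 93.5 and 97.6 CPM and wild-type library 2 at 210.5 CPM, and in all 6 genes the groups overlap.

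Of the 6 genes, 0 passed edgeR at an adjusted p of 0.05, where 0% of all genes did, and 0 passed DESeq2, where 0.0906% did. At an unadjusted p under 0.05 edgeR had 2 of the 6, Aacs and Acat1, both higher in knockout, beside 3.17% of all genes in that direction and 8.31% in either. The groups overlapped in all 6, while they did not overlap for 7.12% of genes in the higher direction and 6.96% in the lower, 14.1% in all. All 6 means were higher in knockout, as were 48.3% of all means, and the median log2 fold change of the set was 0.12, beside −0.0066 over all genes. With a library left out, chosen after seeing the data, the number of genes without overlap was 1 (Acss2) without wild-type library 0, 3 (Aacs, Oxct1 and Acat1) without wild-type library 2 and 4 (Aacs, Bdh1, Acat1 and Acss2) without knockout library 0. The corresponding shares of all genes higher in knockout were 14.3%, 11.6% and 14.0%. The number was 0 without wild-type library 1, knockout library 1 or knockout library 2, beside shares of 11.7%, 9.57% and 12.5%.

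**Figure D3:**
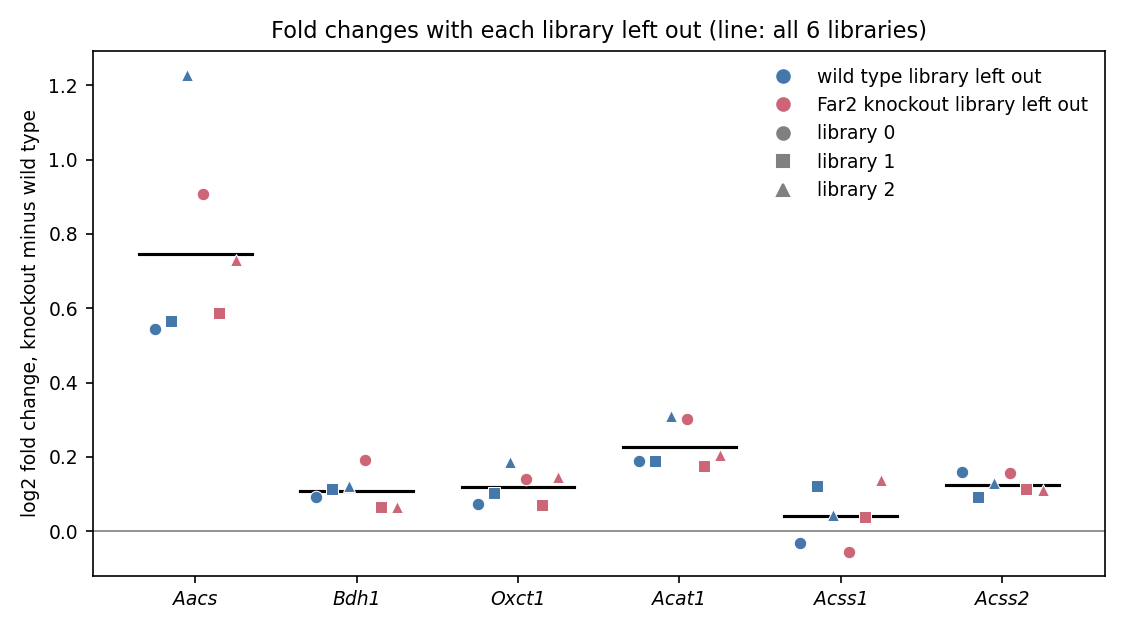
Log2 fold change (knockout minus wild type) of each gene over all 6 libraries (black line) and with each library left out in turn (points, coloured by the group of the library left out and shaped by its number). Aacs ranges from 0.54 to 1.23 and Acss1 lies on either side of 0.

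The genes with values most like those of Aacs across the libraries were also lowest in wild-type libraries 0 and 1. Their choice by likeness to Aacs over these same libraries fixes this in large part. Likeness was the root mean square difference from Aacs in log2 CPM, after each gene's mean over the 6 libraries was taken out. It was ranked over 9344 genes whose average log2 CPM reached 3. Gm numbers, Rik clones, accessions, LOC, Mir and Snor symbols and joined names were left out of these. The nearest gene was Slc22a7, an organic anion transporter, at 0.15, followed by Keg1 at 0.18, Tgm1, a transglutaminase, at 0.22 and Lpl, lipoprotein lipase, at 0.24. Slc22a7 read 73.5, 83.3 and 167 CPM in wild type and 120.4, 191 and 144 CPM in knockout, in library order. Keg1 read 925, 797 and 1717 CPM in wild type and 1408, 1943 and 1523 CPM in knockout. In Tgm1 and Lpl wild-type library 2 was the highest of all 6, at 50.7 and 766 CPM. None of the 4 had the same full order of libraries as Aacs, and none passed the test of edgeR (adjusted p = 0.603 to 0.802), with log2 fold changes from 0.28 in Lpl to 0.50 in Keg1. Of the other enzyme genes, Acat1 was the nearest to Aacs, at 0.44 and rank 111, and Acss1 the farthest, at 0.61 and rank 5772. These likenesses over 6 libraries are a description.

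**Figure D4:**
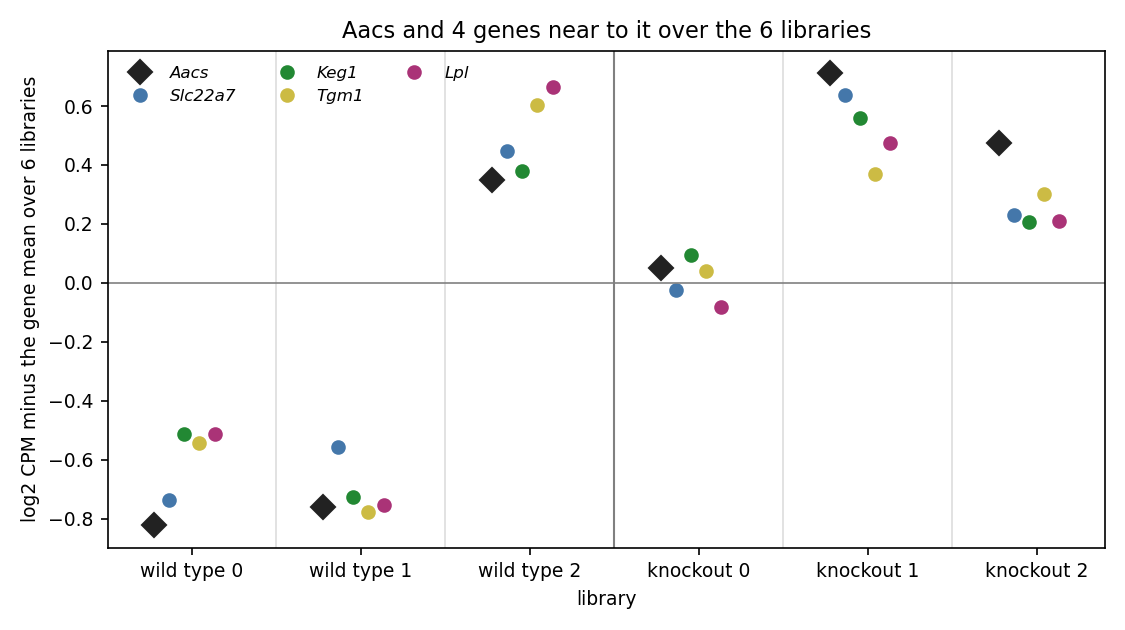
Log2 CPM of Aacs (diamonds) and of its 4 nearest genes (circles) in each library, after the mean of each gene over the 6 libraries was taken out. All 5 genes are below their mean in wild-type libraries 0 and 1 and above it in wild-type library 2 and knockout libraries 1 and 2. The 4 genes were chosen for likeness to Aacs over these same libraries.

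Other genes of the pathway were taken from 5 lists, which were also written with earlier results known. By edgeR 0 of their genes passed after adjustment over all genes. The counts below stand beside 48.3% of all tested genes with a higher mean in knockout. Without overlap, judged on CPM, 7.12% of all genes were higher and 6.96% lower. Bdh2, a cytosolic dehydrogenase, did not overlap between groups, at 213, 205 and 204 CPM in wild type and 234, 237 and 225 CPM in knockout, with a log2 fold change of 0.16 and a standard error of 0.061 (edgeR, adjusted p = 0.599).

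Of 9 related enzyme genes, 7 were tested, and 5 means were higher and 2 lower, all with overlap, with a median of 0.17. The copies Oxct2a and Oxct2b had at most 10 fragments in any library. Acat2, the cytosolic thiolase, averaged 74.9 ± 10.8 CPM in wild type (SD, n = 3) and 90.02 ± 5.71 CPM in knockout. It has a near-identical neighbour, Acat3, so fragments may have been split between them. Acsm3, an acyl-CoA synthetase of medium chains, spread widely, from 538 to 1033 CPM in wild type and from 646 to 1226 CPM in knockout, and Acsm1 had a log2 fold change of 0.17 with a standard error of 0.087.

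The 9 genes of ketone, lactate and acetate transport had 8 higher means, 2 of them without overlap, and 1 lower, with a median of 0.13. Slc16a1, the monocarboxylate transporter MCT1 that carries ketone bodies across the plasma membrane, read 76.9, 70.3 and 47.9 CPM in wild type and 88.6, 103 and 81.7 CPM in knockout. Every knockout library was above every wild-type library. The difference was 0.48 ± 0.16 (log2 fold change and standard error, edgeR adjusted p = 0.599). The authors' deposited table called Slc16a1 higher in knockout (q = 0.0191), and DESeq2 did not (adjusted p = 0.250). Wild-type library 2, the highest of its group in Aacs, was the lowest in Slc16a1. Slc16a7, the transporter MCT2, also did not overlap on CPM, with a log2 fold change of 0.15 and a standard error of 0.077. On FPKM its groups overlapped, since wild-type library 1, at 52.01, was above knockout libraries 0 and 2, at 51.45 and 51.18. Slc5a12, a sodium-coupled transporter of the same substrates, overlapped and stood at 0.16 with a standard error of 0.093.

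The list of cytosolic acetyl-CoA supply and use, which holds the steps AACS and ACSS2 feed, had 15 higher and 6 lower means among 21 tested genes, and 7 were higher without overlap. Its median was 0.19. The smallest p-values were those of Mvk, mevalonate kinase, with a log2 fold change of 0.45 and a standard error of 0.095, Scd1, stearoyl-CoA desaturase, with 0.57 and 0.13, and Fdps, farnesyl diphosphate synthase, with 0.36 and 0.10. DESeq2 called Scd1 (adjusted p = 0.00984). The authors' deposited table called Scd1 and Idi1, an isomerase of sterol synthesis, each at q = 0.0106. Of 13 genes that control ketone and acetate metabolism, 10 were tested and all 10 means were higher, 1 without overlap, with a median of 0.089. That gene was Pdk4, the kinase that shuts pyruvate dehydrogenase, with a log2 fold change of 0.77, a standard error of 0.085 and an adjusted p of 0.0722 by edgeR. DESeq2 called Pdk4 (adjusted p = 1.51e-08), and so did the authors' deposited table (q = 0.0106). Sirt3, the mitochondrial deacetylase that acts on ACSS1, stood at 0.21 with a standard error of 0.083, and Acot12, a cytosolic thioesterase that frees acetate, at 0.16 with a standard error of 0.099.

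**Figure D5:**
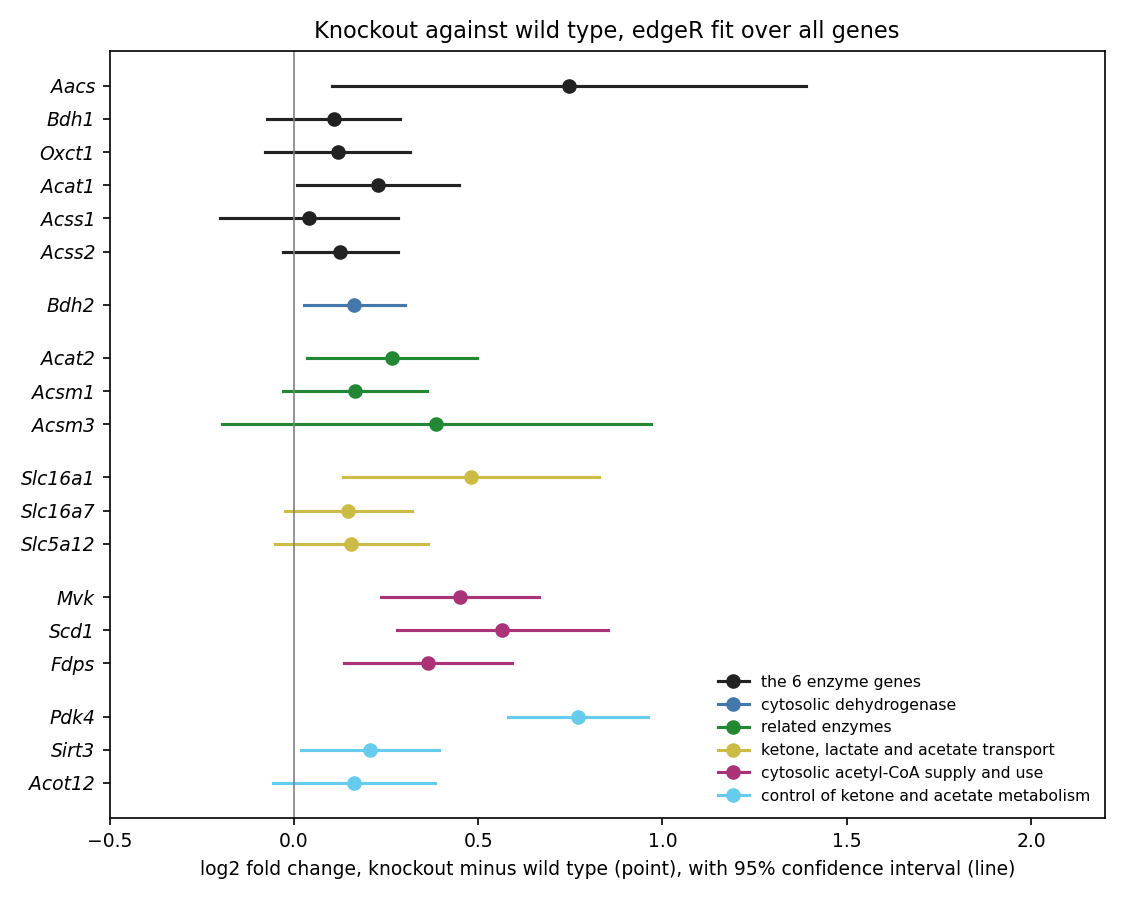
Log2 fold change (knockout minus wild type, points) with its 95% confidence interval (lines) for the 6 genes, for Bdh2 and for the 3 genes with the smallest p-values of each of the other pathway lists, from the edgeR fit over all genes. Aacs has a wide interval, from 0.10 to 1.39, and that of Acss1 lies on both sides of 0.

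Kidney samples hold several cell types, and in bulk RNA fewer cells of a type and less RNA per cell cannot be told apart. Among all genes tested, 48.3% of means were higher in knockout, and 7.12% of genes were higher and 6.96% lower without overlap. Markers of white and brown fat were higher in the mean for all 7 tested genes of 9, 1 without overlap (Fabp4). Their summed level was 61.1, 53.5 and 56.8 CPM in wild type and 69.6, 65.3 and 109 CPM in knockout, in library order. Most of that sum was Fabp4, at 27.5 to 48.4 CPM, and Lipe, at 19.1 to 24.5 CPM. Adipoq, which defines fat cells, was at 0.60, 0.19 and 0.84 CPM in wild type and 0.85, 0.20 and 2.05 CPM in knockout, and Lep had at most 5 fragments in any library. Knockout library 1, the highest in Aacs, had 3 fragments of Adipoq, while knockout library 2 had 391 of Ucp1, the uncoupling protein of brown fat, against 8 to 81 elsewhere. Proximal tubule markers, 9 of 9 tested, summed to 19739, 21461 and 23744 CPM in wild type and from 21805 to 22478 CPM in knockout, and wild-type library 2 was the highest of all. Macrophage markers had lower means in knockout for 7 of 7, 2 without overlap. Their sums were 210.1, 112 and 113 CPM in wild type and 90.2, 123 and 114 CPM in knockout, in library order. Fibroblast and matrix markers had lower means for 6 of 6, 2 without overlap. Their sums were 353, 232 and 246 CPM in wild type and 232, 208 and 222 CPM in knockout. In both lists wild-type library 0 stood above all other libraries. Tubular injury markers had lower means in knockout for all 5 tested genes of 6, all with overlap, with a median log2 fold change of −1.35. Podocyte markers had lower means for 5 of 5, all with overlap, with sums from 243 to 332 CPM and from 226 to 283 CPM. Of 6 hepatocyte markers 4 were tested and 3 means were higher, 1 without overlap, with sums from 1242 to 1372 CPM in wild type and from 1394 to 1489.5 CPM in knockout. Most of that sum was Apob, at 1193 to 1447 CPM, while Alb lay between 10.4 and 20.95 CPM and Cyp7a1 had 0 fragments in all 6 libraries. Wild-type library 0, the highest in macrophage and injury markers, was the lowest in Aacs, at 93.5 CPM. Wild-type library 1 was close to it in Aacs, at 97.6 CPM, with injury markers at 502 CPM and macrophage markers at 112 CPM. The part of these cell types, of injury and of depth in the differences above was not tested. Wild-type library 2 and knockout library 1, the highest of their groups in Aacs, were also the shallowest of their groups, at 15843181 and 15261362 fragments.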

How the data were processed

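Per the labels' protocols, a stranded kit with removal of ribosomal RNA was used on total RNA of 6 right kidneys. Tools in the submitters' processing notes are Cufflinks 2.2.1 and Cuffdiff, TopHat2 2.0.13, Bowtie2 2.2.3, SAMtools 1.2 and cutadapt 1.2.1, and the build is mm10. The sources used here give neither gene models nor strand setting, nor how fragments with several alignments were counted. Per the file headers, each gene and library has an estimated count of fragments and an FPKM value, deposited by the authors beside a comparison table of FPKM for each group, a log2 fold change, a p-value and a q-value. Of the estimated counts, 1.12% are not whole (exact match required).

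After rounding, genes kept by filterByExpr were tested between the 2 groups in R 4.3.3, without covariates, by the two-sided quasi-likelihood test of edgeR 4.0.16 on TMM-scaled libraries, with Benjamini-Hochberg adjustment over all 14354 genes and a threshold of 0.05. Depth was from 15261362 to 20631158 fragments, and counting error was at most 2.30% for Aacs. The series design calls the samples biological replicates. The members and lists were chosen with earlier results of these data known. Named genes are the 6 enzymes, Far2, up to 3 genes of each list with the smallest p, and the genes nearest to Aacs in log2 CPM (prior count 2), of which 4 are given; marker genes, overlapping genes, Acat3, Idi1, Oxct2a and Oxct2b were chosen after their values were seen. Some genes of the lists and 1 gene near Aacs are not reported here, and counts leave them out of the lists. Older symbols were matched through RefSeq. As alternatives, scaling (RLE, upper quartile), filter (none, or 1 CPM in 3 libraries), test (DESeq2 1.42.0, voom with limma 3.58.1, limma on log2(FPKM + 1) and log2(FPKM + 0.1)) and threshold (0.10) were changed, and libraries were left out one by one. A table of counts by condition was left aside. Summaries were made in Python 3.11.15.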

Additional observations from a re-analysis of the deposited data

How the results depend on the processing

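Over 14 alternatives each, Aacs, Bdh1, Oxct1, Acat1 and Acss2 kept a higher mean in knockout and none of the 6 genes passed, while the sign of Acss1 turned in 2. The log2 fold change of Aacs ran from 0.54 to 1.23 (adjusted p = 0.141 to 0.998). With 1 library left out Acss1 ran from −0.055 (without knockout library 0) to 0.14, and it was −0.033 without wild-type library 0. The number of genes called among all tested was 0 by edgeR (1193 at an unadjusted p under 0.05), 1 at an adjusted p under 0.10, 1 with no filter, 13 by DESeq2, and from 0 to 1 with a library left out. The number of the 6 genes without overlap ran from 0 to 4 with a library left out. Of all genes, from 9.57% to 14.3% were then higher without overlap and from 9.76% to 15.2% lower. The order by mean FPKM over both groups held in all 15 pairs of genes under its 7 alternatives, none of which took the groups apart. By group the place of Aacs changed. It was below Bdh1 in wild type (35.9 against 42.4 FPKM) and above Acss1 in knockout (61.6 against 59.8 FPKM). No paired analysis was made, because the groups are different mice and no label pairs them. The library numbers match no sample label. With 3 libraries a group, the intervals of the log2 fold changes of 4 of the 6 genes include 0.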
